A study of Ambystoma mexicanum with 6 samples.

Results

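Lactate dehydrogenase B and creatine kinase B are 2 enzymes of cellular energy supply, and their transcripts were followed in regenerating axolotl limbs under the midkine inhibitor iMDK. Their members are all transcripts of the assembled gene c1069245_g1, whose best blastx protein is mouse LDHB, and of c1065747_g1, whose best blastx protein is bovine creatine kinase B (KCRB). These are 6 transcripts, 1 of LDHB and 5 of KCRB, among the 1554055 transcripts of the assembly. A value above 0 in 1 or more libraries was found for 456466 of these. The tissue was regenerating limb of Ambystoma mexicanum at 11 days post-amputation (dpa), and per the methods of the study the animals were juvenile white axolotls kept in the drug solution. One group received iMDK, a small molecule directed against the growth factor midkine, and the other received DMSO, its solvent. The study states that the direct target of iMDK is not known and does not discount non-specific effects. Per the labels of these libraries, both treatments began directly after amputation and ran to collection. There were 3 libraries per group, and the methods of the study count each sample as a limb from its own animal.

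Lactate dehydrogenase interconverts pyruvate and lactate at the expense of NADH and NAD+. The enzyme is a tetramer of A (muscle-type) and B (heart-type) subunits, and B-rich tetramers are typical of tissues such as the heart that use lactate as a fuel. Creatine kinase moves a phosphate between ATP and creatine, so that phosphocreatine serves as a reserve from which ATP is quickly rebuilt. The B subunit is the brain-type cytosolic form, found in many tissues besides brain, whereas the M subunit belongs to differentiated muscle.

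Levels are given as TPM (the relative abundance of a transcript, corrected for its length) that the authors scaled between libraries with TMM factors. The number of reads behind such a value is unknown, and no counting interval could be given. The columns summed to between 910461 and 1103877, and between 126965 transcripts (iMDK replicate 1) and 198094 (DMSO replicate 2) were above 0. The 10 assembled genes of the epidermal list (keratins, transglutaminases and plakophilins) were all above 0, and the muscle list was low, with a summed level of 9.75 to 11.9 TPM in iMDK limbs and 6.003 to 10.1 TPM in DMSO limbs. The muscle list holds only 4 assembled genes (ABRA, LNEBL, MYH3 and LMCD1), so its sum does not measure how much muscle the limbs held.

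LDHB was lower in every iMDK library than in any DMSO library. Its single transcript, which is also the sum of the gene, was at 379.8, 344 and 273 TPM in iMDK replicates 1 to 3, against 552, 410.4 and 456 TPM in DMSO replicates 1 to 3. The highest iMDK library (replicate 1) thus stayed below the lowest DMSO library (replicate 2). The mean was 333 ± 54.1 TPM in iMDK limbs and 473 ± 72.3 TPM in DMSO limbs (SD, n = 3 each), so that the iMDK mean was 70.3% of the DMSO mean. By limma on log2(value + 0.5) over all assembled genes, the difference was -0.51 (SE 0.20, 95% interval -0.997 to -0.023), with an unadjusted p of 0.0426 and a Benjamini-Hochberg adjusted p of 0.443. LDHB therefore did not pass the test, and its fold of 0.70 was also short of the 2-fold limit of a call. The same holds in the fit over transcripts, where the adjusted limma p was 0.425. In the fit over gene sums, the unadjusted limma p was between 0.0817 and 0.149 when iMDK replicate 2 or 3 or DMSO replicate 1 or 3 was left out.

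That LDHB's groups did not overlap is a common outcome in these data. Of the 44342 assembled genes tested, 8.23% were lower in iMDK limbs without overlap, 4.89% were lower with an unadjusted p under 0.05, and 0.0541% were called in either direction (14 higher, 0.0316%, and 10 lower, 0.0226%). Among 51718 transcripts tested, 0.541% were called. LDHB belongs to the first 2 of these classes and was not called. In limbs taken whole, fewer cells of a type that carries LDHB and less LDHB RNA per cell cannot be told apart.

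The place of LDHB among all genes of a library separated the groups too. It rests on the same LDHB values and is not separate evidence. Counted from the most abundant assembled gene, LDHB ranked 348, 325 and 424 in iMDK replicates 1 to 3, against 211, 223 and 240 in DMSO replicates 1 to 3. Its rank was lower in the order in all 3 iMDK libraries than in all 3 DMSO libraries. Ranks do not depend on a scaling factor, although they move with the number of other genes that change.

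KCRB was among the most abundant assembled genes of the limb in both groups, and its groups overlapped widely. The gene sum was 2057, 2826 and 1370.3 TPM in iMDK replicates 1 to 3, against 2741, 2029 and 1476 TPM in DMSO replicates 1 to 3. The highest and the lowest of the 6 libraries were both iMDK libraries. The mean was 2084 ± 728 TPM in iMDK limbs and 2082 ± 634 TPM in DMSO limbs (SD, n = 3 each), and the limma difference was -0.015 on the log2 scale (SE 0.38, adjusted p = 0.990). It was 0.26 without iMDK replicate 3 and 0.21 without DMSO replicate 1, but -0.26 without iMDK replicate 2 and -0.24 without DMSO replicate 3. KCRB did not pass the test in any of these cases. The 95% interval of the fold ran from 0.53 to 1.84, so that with 3 libraries per group a change of nearly 2-fold in either direction was within the error. KCRB ranked 43, 21 and 61 in iMDK replicates 1 to 3, against 27, 29 and 52 in DMSO replicates 1 to 3, with overlapping ranks.

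**Figure D1:**
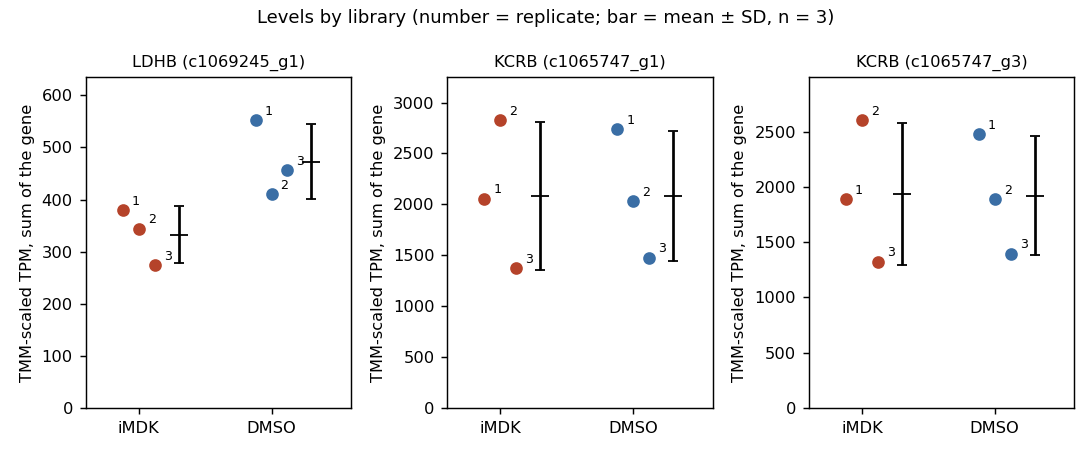
Summed level (TMM-scaled TPM) of LDHB and of both assembled KCRB genes in each iMDK and DMSO library; points are libraries numbered by replicate and bars are the mean ± SD (n = 3 each). The iMDK libraries of LDHB lie between 273 and 379.8 TPM, all below the DMSO libraries at 410.4 to 552 TPM, whereas both KCRB genes overlap between groups.

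The spread between libraries of 1 group also set the enzymes apart. The pooled within-group SD of LDHB was 0.23 on the log2 scale, and 31.3% of the 1000 assembled genes nearest to it in level had a smaller one. The SD of KCRB was 0.49, larger than in 85.7% of its 1000 neighbours, whose median was 0.29. The highest library was 2.02 times the lowest for LDHB and 2.06 times for KCRB, but for LDHB these were a DMSO and an iMDK library, and for KCRB 2 iMDK libraries.

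Practically all of the KCRB level came from 1 of its 5 transcripts. The isoform c1065747_g1_i2 held 99.94, 99.96 and 99.93% of the gene sum in iMDK replicates 1 to 3, against 99.96, 99.97 and 99.96% in DMSO replicates 1 to 3. The mean share was 99.94 ± 0.012% in iMDK limbs and 99.96 ± 0.0087% in DMSO limbs (SD, n = 3 each). The difference of -0.018 percentage points did not pass the test (exact permutation test, 2-sided, p = 0.2, adjusted p = 0.8 over the isoforms with a varying share). Of the other isoforms, c1065747_g1_i5 lay between 0.445 and 1.09 TPM and c1065747_g1_i1 between 0.088 and 0.321 TPM over the 6 libraries. The isoform c1065747_g1_i3 was listed at 0.705 TPM in iMDK replicate 2 and at 0 elsewhere, and c1065747_g1_i4 was listed at 0 in all 6 libraries. A listed 0 can be a failed estimate, since the quantification divides reads among near-identical transcripts. Only c1065747_g1_i2 and the LDHB transcript reached 1 TPM in at least 3 libraries, so 2 of the 6 member transcripts were tested, and 0 were called. With 0.541% of all 51718 tested transcripts called, this count sets the members apart from no other transcripts.

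The assembly holds a second gene with the same component number, c1065747_g3, whose best blastx protein is chicken KCRB. Its sum was 1886, 2603 and 1324 TPM in iMDK replicates 1 to 3, against 2475, 1889 and 1396 TPM in DMSO replicates 1 to 3. These values tracked those of c1065747_g1 in every library, with a ratio of c1065747_g1 to c1065747_g3 between 1.035 and 1.108 and a Pearson r of 0.999 over the 6 libraries. The difference of c1065747_g3 was -0.0021 on the log2 scale (95% interval -0.85 to 0.85, adjusted p = 0.998). RefSeq lists 1 gene with the symbol CKB in the axolotl assembly UKY_AmexF1_1, and likewise 1 gene each for LDHB, LDHA and CKM, but none of the identifiers of the matrix could be matched to RefSeq. Whether c1065747_g1 and c1065747_g3 are pieces or alleles of 1 gene or separate genes was not tested, and the split of reads between them is uncertain.

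Minor transcripts of c1065747_g3 were near the limit of measurement. The transcript c1065747_g3_i1 was at 2.57, 3.42 and 0.974 TPM in iMDK replicates 1 to 3, against 0.346, 1.21 and 0.331 TPM in DMSO replicates 1 to 3, and its groups overlapped through iMDK replicate 3 and DMSO replicate 2. The log2 difference was 1.29 with an adjusted limma p of 0.463. It made up a negligible part of the gene, whose level was carried by c1065747_g3_i2 in each library. One more gene of the component, c1065747_g2, was listed at 0 throughout.

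The level of LDHB was next set against other energy enzymes of the same library, since such ratios do not depend on how the libraries were scaled. These ratios, 15 in all, were chosen after the data were seen. Relative to triosephosphate isomerase (TPIS), a glycolytic enzyme, LDHB stood at 0.651, 0.669 and 0.604 in iMDK replicates 1 to 3, against 0.923, 0.957 and 0.967 in DMSO replicates 1 to 3. The groups did not overlap and the values within each lay close together, with a log2 difference of -0.57 (SD 0.076 in iMDK limbs and 0.036 in DMSO limbs on that scale, n = 3 each). Relative to glucose-6-phosphate isomerase (G6PI), LDHB stood at 0.958, 0.957 and 0.792 in iMDK libraries, against 1.37, 1.36 and 1.28 in DMSO libraries. Relative to cytosolic malate dehydrogenase (MDHC), which like LDHB turns over NADH, it stood at 0.638, 0.729 and 0.605 in iMDK libraries, against 0.916, 1.031 and 1.044 in DMSO libraries.

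LDHB was lower in all 3 iMDK libraries against each of the references used. The log2 difference was -0.49 against mitochondrial malate dehydrogenase (MDHM), -0.54 against the alpha subunit of ATP synthase (ATPA), -0.61 against the E1 beta subunit of pyruvate dehydrogenase (ODPB) and -0.54 against the geometric mean of 28 energy enzymes. Against that mean, LDHB stood at 5.22, 5.48 and 4.42 in iMDK replicates 1 to 3 and at 7.89, 6.79 and 7.25 in DMSO replicates 1 to 3. Each of these 7 ratios gave an exact permutation p of 0.1 (2-sided, adjusted 0.188 over the 15 ratios), which is the smallest that 3 against 3 libraries allow, so none could pass 0.05. The ratios share LDHB as their numerator and do not count as separate evidence. How many of all tested genes separate the groups by such ratios was not counted. On the levels themselves, 8.23% of the 44342 assembled genes tested were lower in iMDK limbs without overlap. The single enzymes picked differed little between groups themselves, from -0.017 (MDHM) to 0.10 (ODPB) on the log2 scale. Some of the 28 that were lower in iMDK limbs on average were not used as single references. Examples are pyruvate dehydrogenase kinase 4 (-0.65) and the glucose-6-phosphate carrier (-0.34). When the whole table was scaled to the 28 energy enzymes and fitted again, the limma difference of LDHB was -0.54, with an unadjusted p of 0.00743 and an adjusted p of 0.220. This scaling, too, was chosen after the data were seen. The unadjusted limma p was 0.0645 under median-of-ratios scaling, 0.00858 with TMM scaling undone and 0.00347 under quantile normalization.

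KCRB did not separate the groups by the same measure. Against the geometric mean of the 28 enzymes it stood at 28.2, 44.9 and 22.1 in iMDK replicates 1 to 3, against 39.1, 33.6 and 23.4 in DMSO replicates 1 to 3. The log2 difference was -0.045 (exact permutation p = 0.9, adjusted 0.9), and the values overlapped against each of the 6 single enzymes too. Its sign was not stable, at -0.33 without iMDK replicate 2, -0.25 without DMSO replicate 3, 0.19 without iMDK replicate 3, 0.12 without DMSO replicate 1, 0.0081 without iMDK replicate 1 and 0.0049 without DMSO replicate 2. The quotient of KCRB over LDHB was 5.41, 8.20 and 5.003 in iMDK libraries and 4.96, 4.94 and 3.23 in DMSO libraries, a log2 difference of 0.50 (exact permutation p = 0.1, adjusted 0.188). Its groups were parted only by the small gap between iMDK replicate 3 and DMSO replicate 1. Without iMDK replicate 2 the difference was 0.28, and without DMSO replicate 3 it was 0.29.

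**Figure D2:**
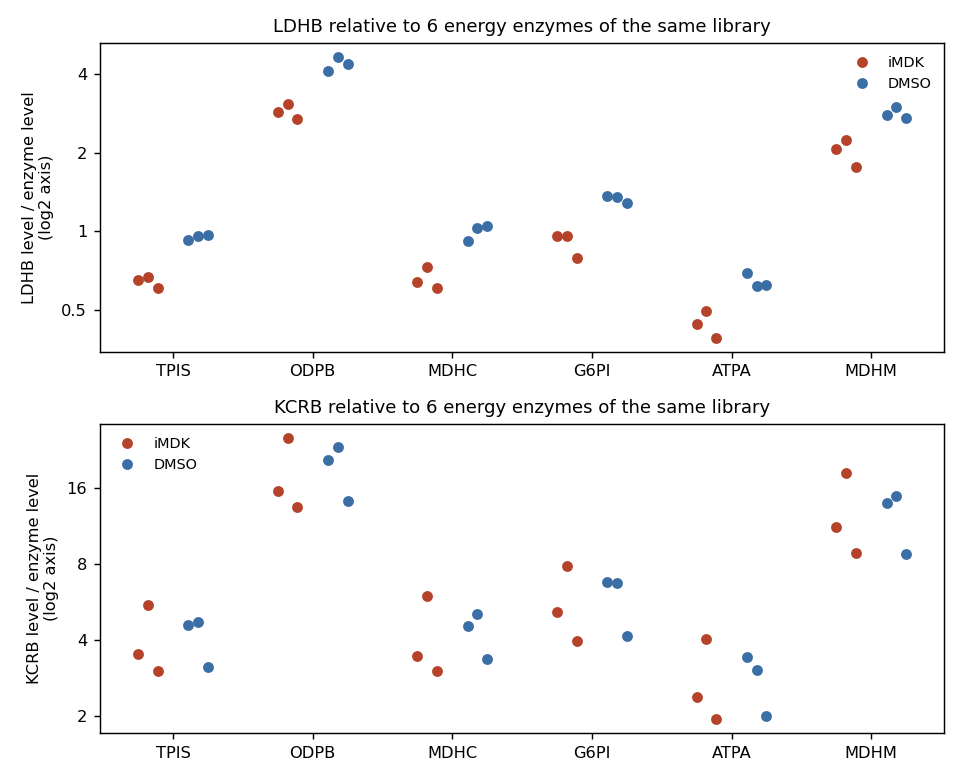
Level of LDHB (top) and of KCRB (bottom) divided by the level of 6 energy enzymes of the same library, on log2 axes; each point is 1 library, with iMDK left of DMSO and replicates 1 to 3 from left to right. LDHB lies lower in all iMDK libraries against every enzyme, for example 0.604 to 0.669 against 0.923 to 0.967 for TPIS, whereas the KCRB values overlap.

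None of the 28 other energy enzymes in the lists passed the test, but with 0.0541% of all assembled genes called, a count of 0 sets them apart from no other genes. Of 12 assembled genes of glycolysis and glucose storage, all were tested, 0 were called, 6 were above 0 and 6 below, and the median log2 difference was -0.0012. Of 7 genes of pyruvate, lactate and citrate cycle metabolism 0 were called, with 3 above and 4 below 0 and a median of -0.017. Of 9 genes of the respiratory chain and ATP synthase 0 were called, with 8 above and 1 below 0 and a median of 0.16, which was -0.0098 without iMDK replicate 1, -0.032 without DMSO replicate 2 and 0.34 without DMSO replicate 1. Over the 3 lists, 28 genes had a median of 0.045, beside -0.012 for all 44342 assembled genes tested, of which 50.7% were below 0. An unadjusted limma p under 0.05 was reached by 2 of the 28 (7.14%), against 10.7% of all genes.

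Both of those genes had groups that did not overlap, as 8.38% of all tested genes did with iMDK limbs higher and 8.23% with iMDK limbs lower. Cytosolic glycerol-3-phosphate dehydrogenase (GPDA), which draws on NADH to make glycerol 3-phosphate, was at 107, 93.4 and 117 TPM in iMDK replicates 1 to 3, against 70.7, 70.1 and 77.4 TPM in DMSO replicates 1 to 3. All iMDK libraries were above all DMSO libraries, with a log2 difference of 0.53 (SE 0.15, adjusted p = 0.246). Pyruvate dehydrogenase kinase 4 (PDK4), which inhibits the entry of pyruvate into the citrate cycle, was at 4.54, 6.78 and 5.25 TPM in iMDK replicates 1 to 3, against 11.3, 8.34 and 7.32 TPM in DMSO replicates 1 to 3. All iMDK libraries were below all DMSO libraries, with a log2 difference of -0.65 (SE 0.25, adjusted p = 0.423). Neither passed the test over all genes.

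Other enzymes around pyruvate and lactate overlapped between groups. Alanine aminotransferase 2 (ALAT2), which exchanges pyruvate and alanine, differed by 0.42 on the log2 scale (adjusted p = 0.654), with 0.23 without DMSO replicate 1 and 0.65 without DMSO replicate 3. The lactate and pyruvate carrier MOT2 differed by -0.18 and mitochondrial aspartate aminotransferase (AATM) by -0.23, and both of these signs turned without DMSO replicate 2 (0.0012 and 0.11). In sugar metabolism the glucose-6-phosphate carrier G6PT1 differed by -0.34, the glycerol-3-phosphate dehydrogenase relative GPD1L by -0.21 and liver-type glycogen phosphorylase (PYGL) by 0.22. GPD1L was at -0.11 without iMDK replicate 3 and -0.12 without DMSO replicate 2. PYGL was at 0.13 without iMDK replicate 1, 0.12 without DMSO replicate 1, 0.15 without DMSO replicate 2, 0.34 without iMDK replicate 2 and 0.38 without DMSO replicate 3. Among respiratory genes, the log2 difference was 0.29 for ATP synthase subunit e (ATP5I), 0.26 for the cytochrome c oxidase subunit CX6B1, 0.20 for ATP synthase subunit delta (ATPD) and -0.11 for the complex I subunit NDUS1. Without iMDK replicate 1 these differences were 0.082, 0.090, 0.036 and -0.23 in the same order, without DMSO replicate 2 they were 0.062, 0.060, 0.053 and -0.15, and without DMSO replicate 1 they were 0.54, 0.46, 0.34 and -0.064. ATPD was also at 0.32 without iMDK replicate 2, and NDUS1 at -0.021 without iMDK replicate 3. The lowest adjusted p among the genes of this paragraph was 0.601, for G6PT1.

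**Figure D3:**
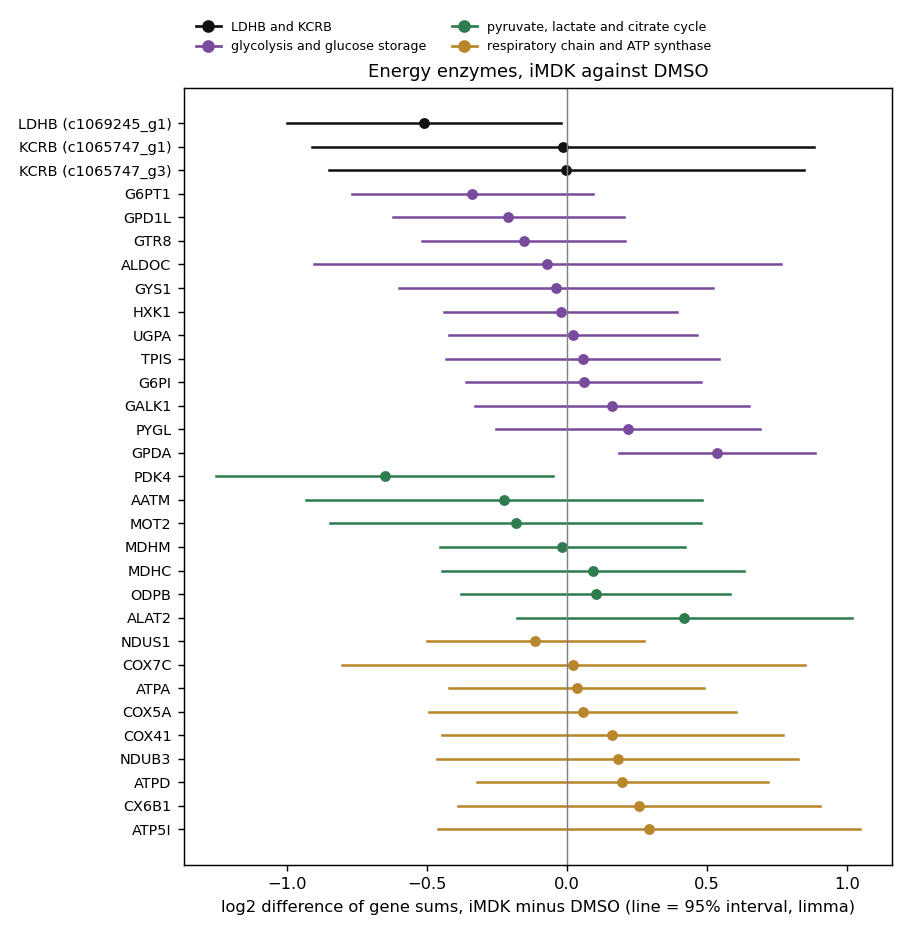
Difference of gene sums, iMDK minus DMSO, on the log2(sum + 0.5) scale with 95% intervals from limma (n = 3 libraries each), for LDHB, both KCRB genes and the 28 energy enzymes in their 3 lists. LDHB (-0.51), PDK4 (-0.65) and GPDA (0.53) are the genes whose interval leaves out 0, and no adjusted p is under 0.05.

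Among 1255 assembled genes with a blastx name and a mean of at least 1 TPM, the profile over the 6 libraries that was most like LDHB belonged to GID8, a subunit of a ubiquitin ligase complex, with a Pearson r of 0.990. It was followed by the translation initiation factor subunit EIF3D (0.987), the ubiquitin ligase RNF41 (0.978), K0317 (0.974) and the mRNA 3' end processing factor CSTF2 (0.969). All 5 were lower in every iMDK library than in any DMSO library, as LDHB is, and they were picked for that likeness. GID8, for example, was at 32.4, 30.6 and 26.0 TPM in iMDK replicates 1 to 3, against 39.2, 32.7 and 34.3 TPM in DMSO replicates 1 to 3. In all, 42 of the 1255 genes had an r above 0.9 with LDHB, and 5 had one with KCRB, among them the second KCRB gene. The names come from transcripts that the study listed as differing between limbs under a sutured skin flap and normal regenerating limbs. The 1255 are thus a selected set. The r between LDHB and KCRB was 0.42.

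The second KCRB gene aside, the profile most like that of KCRB belonged to the cathepsin K gene c1083836_g2 (CATK), a collagen-degrading protease known from osteoclasts in mammals, with an r of 0.951 over the 6 libraries. CATK was at 2578, 3811 and 1825 TPM in iMDK replicates 1 to 3, against 3254, 2880 and 1534 TPM in DMSO replicates 1 to 3. As for KCRB, iMDK replicate 2 and DMSO replicate 1 were the highest libraries, and iMDK replicate 3 and DMSO replicate 3 the lowest. The next were OCSTP (0.928), a membrane protein needed for the fusion of osteoclast precursors in mice, GIN1 (0.903) and the heparan sulphate proteoglycan syndecan-2, SDC2 (0.901). OCSTP was at 9.07, 12.7 and 7.94 TPM in iMDK replicates 1 to 3, against 13.4, 8.58 and 7.69 TPM in DMSO replicates 1 to 3. Without the 2 libraries farthest from the median of KCRB (iMDK replicate 3 and DMSO replicate 3), r was 0.90 for CATK and 0.98 for OCSTP but 0.61 for GIN1 and 0.51 for SDC2. These are descriptions over libraries that differ in treatment and number of genes detected.

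**Figure D4:**
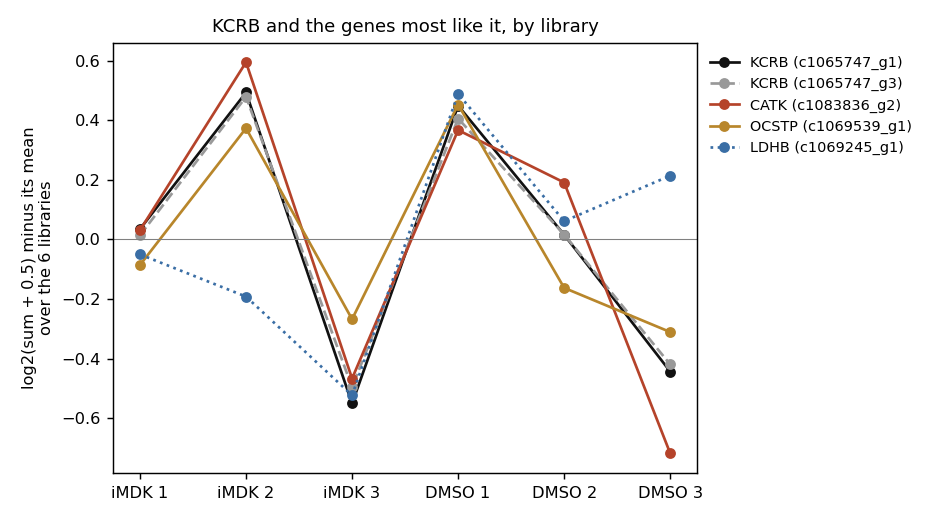
Summed level of both KCRB genes, CATK, OCSTP and LDHB in each library, as log2(sum + 0.5) minus the mean of that gene over the 6 libraries; lines join the points of 1 gene and carry no order. Both KCRB genes, CATK and OCSTP are highest in iMDK replicate 2 and DMSO replicate 1, whereas LDHB is lower in the 3 iMDK libraries (273 to 379.8 TPM) than in the 3 DMSO libraries.

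The markers of other cell types were mostly at a higher level in iMDK limbs, but of the 28 tested only 2 passed the test. For comparison, 50.7% of all tested assembled genes lay below 0 on the log2 scale. In iMDK limbs 8.38% were higher without overlap and 0.0316% were called higher. The lists hold only genes with a blastx name and were chosen with earlier results of these data known. The summed level of the macrophage list (10 assembled genes) was 5892 to 7543 TPM in iMDK limbs and 4820 to 5762 TPM in DMSO limbs, and 4 of the 10 were higher without overlap. These were GILT, CD63 and the genes c1067279_g4 and c1067279_g6, both named GRN. C1QA lay below 0 on the log2 scale (-0.12), and both MPEG1 genes and the tested cathepsin K genes overlapped between groups. The summed level of this list came mostly from CATK c1083836_g2 (mean 2738 TPM in iMDK and 2556 in DMSO limbs), CD63 (1639 and 1071) and MPEG1 c1090171_g3 (1382 and 856). That of the erythrocyte list (6 genes) was 44.2 to 84.9 TPM in iMDK limbs and 8.79 to 19.3 TPM in DMSO limbs, and 2 of the 6, the hemoglobin chains HBB1 and HBB2, were called higher by limma, while 2 others lay below 0 on the log2 scale (HBA2 at -0.12 and ERMAP at -0.0091). The epidermal list lay at 12077 to 13904 TPM in iMDK limbs and 8449 to 12919 TPM in DMSO limbs, ranges that overlap, and 2 of its 10 genes were higher without overlap. In the muscle list 1 of 4 genes was higher without overlap, and no gene of these lists was at 0 in all libraries. The part of these cell types in the lower LDHB level was not tested. For KCRB, a cathepsin K gene of the macrophage list had the r of 0.951 given above and a further one (c1078994_g2) had 0.78, whereas the 7 other tested members (GILT, GRN, CD63, C1QA and MPEG1) lay between -0.68 and 0.038. Without iMDK replicate 3 and DMSO replicate 3, the r of c1078994_g2 fell to 0.32, while that of c1083836_g2 was 0.90. The r of GRN c1067279_g4 rose to 0.64 in the same way, so most of these values rest on few libraries.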

How the data were processed

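RNA from regenerating limbs was sequenced after oligo-dT selection with Nextera XT libraries, 3 per treatment. Per the methods of the study and the labels, the authors trimmed reads with Trimmomatic, quantified them with kallisto against a Trinity transcriptome and ran DESeq2, with no version stated. The signal deposited by the authors is TMM-scaled TPM for each assembled transcript. It does not hold counts, so no count test was run.

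The labels gave groups and replicate numbers. The test was limma 3.58.1 (trend, 2-sided) on log2(value + 0.5) in R 4.3.3 with the data.table package, release 1.17.8, per transcript and per sum over the transcripts of an assembled gene, keeping features of at least 1 in at least 3 of 6 libraries. Calls needed a fold above 2 and an adjusted p (Benjamini-Hochberg, over all features) under 0.05. On this scale changes of low features are understated. Isoform shares and the ratios within a library were tested by exact permutation. The fit was also run on simulated data. The changes added there were larger than the LDHB difference, so that run says nothing on changes of its size. A limma p-value weighs a group difference against the spread between these libraries, with each variance drawn toward that of genes of like level. A permutation p-value compares the difference with those of all regroupings of the 6 libraries. Plots used Python 3.11.15, matplotlib 3.10.9 and pandas 2.3.3.

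Protein names are blastx entries from the supplement of the study and cover 1675 transcripts of the matrix, so enzymes without an entry are not analysed here. The entries are those of transcripts listed as differing between limbs under a sutured skin flap and normal regenerating limbs. The energy lists, marker lists and correlation candidates are therefore drawn from a selected set. The genes named were, beside every transcript of LDHB and KCRB and the genes of the same component, up to 4 per energy list with the smallest p and the 5 named genes most correlated with each sum. Members and lists were chosen with earlier results of these data known. Of the marker lists, ABRA and 1 cathepsin K gene were too low to test. Alternatives covered pseudocount, filter, scaling, trend, robust estimation, a replicate block and leaving out each library.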

Additional observations from a re-analysis of the deposited data

How the results depend on the processing

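LDHB kept its direction under all 18 alternatives of the gene-sum fit, with log2 differences from -0.66 to -0.38. For many of these the direction was fixed in advance. The filter, trend, robust and block settings leave the difference itself at -0.51. Leaving out 1 library cannot turn the sign of groups that do not overlap. Only the changes of scaling could have turned it in practice. All were short of the 2-fold limit, so that it could not be called at any p. The adjusted limma p ran from 0.207 to 0.745 and the unadjusted p from 0.00342 to 0.149. These lowest values came from different fits. The p of 0.00342 arose with no filter, where the adjusted p was 0.516, and the adjusted p of 0.207 under quantile normalization. Without 1 library the LDHB difference ranged from -0.61 to -0.38, and over the energy enzymes from -0.60 to -0.45. KCRB over the energy enzymes ranged from -0.33 to 0.19 in the same way. KCRB has no stable direction: its sum was 0.0078 under median-of-ratios scaling and ranged from -0.26 to 0.26 without 1 library (above 0 without iMDK replicate 3 or DMSO replicate 1), with -0.27 to 0.26 for its main transcript and 0.0076 for that transcript under median-of-ratios scaling. The second KCRB gene gave 0.020 (transcript 0.019) under that scaling and -0.24 to 0.25 (transcript -0.24 to 0.24) without 1 library. AATM ranged from -0.46 to 0.11 and MOT2 from -0.30 to 0.0012 without 1 library. MOT2 had no value at a filter of 5.

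Calls across all transcripts, 280 as reported, numbered 427 with no filter, 168 with a filter of 5, 1303 without the trend and 78 to 138 without 1 library. Calls among gene sums, 24 as reported, numbered 9 with a pseudocount of 0.1, 438 with no filter, 38 with a filter of 5, 14 with TMM scaling undone, 820 without the trend, 12 with scaling to the energy enzymes (chosen after the data were seen) and 0 to 3 without 1 library. Of the gene sums called, 324 of 438 were higher with no filter, and 14 of 24 as reported. The cause was not tested. LDHB and KCRB were called in none of these fits, and their differences were short of the 2-fold limit in each, so that no call was possible. The share of the main KCRB isoform differed by -0.23 percentage points (iMDK minus DMSO) when taken over both KCRB genes.

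Replicate numbers gave no clear pairing of the libraries. Deviations from the group means of same-numbered libraries correlated at 0.071, 0.058 and 0.0046. iMDK replicates 1 and 2 correlated best with the DMSO library of their own number, and iMDK replicate 3 with DMSO replicate 2 (0.057). Correlations this weak cannot settle whether the libraries were paired. With a replicate block, 30 transcripts and 0 gene sums were called, and the adjusted limma p of LDHB was 0.353.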
